A study of Mus musculus with 4 samples.

Results

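S-phase-high N2a cells are the 288 cells of the N2a sample highest by share of DNA replication transcripts, without those also highest by G2/M share. Measured values chose them. Among 2070 cells with at least 2000 UMIs (unique molecular identifiers, each counted as 1 captured transcript) and at most 20% mitochondrial UMIs, the S score was the percent of the UMIs of a cell that fell on 14 genes, Mcm2, Mcm4, Mcm5, Mcm6, Pcna, Tyms, Rrm1, Rrm2, Gins2, Dtl, Hells, Uhrf1, Clspn and Pola1. The highest 15% by this score were 310 cells. Of these, 22 also lay in the highest 15% by the share of Top2a, Mki67, Cenpf, Tpx2, Nusap1 and Kif11 (the G2/M share) and were left out. The 288 members, 13.9% of the N2a cells and part of 5706 filtered cells of the series, are called S-high here. They were compared with the 1035 cells in the lowest 50% of the score, called S-low. Every gene below comes from the same cells and the same contrast as the rule, so the ratios describe the members and are no test of them.

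The N2a sample belongs to a cell line mixing experiment made to show a barcoding and demultiplexing method for split-pool single-cell RNA-seq. In this method cells enclosed in gelatin methacryloyl capsules gain their barcodes over successive rounds of plates. Untreated Neuro-2a cells, a mouse neuroblastoma line, filled columns 1 to 4 of the first plate, NIH/3T3 mouse fibroblasts columns 5 to 8 and E14TG2a mouse embryonic stem cells (mESCs) columns 9 to 12. N2a and NIH/3T3 cells were grown in DMEM with 10% fetal bovine serum, and mESCs with 15% serum, leukemia inhibitory factor, CHIR99021 and PD0325901. The lines were pooled after the first plate, and their reads were separated by first barcode. Each line was 1 sample, so no p-value is given. The 32 first-round wells of N2a are parts of its sample and are not replicates.

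In S phase a cell copies its genome once. Origins are licensed in G1, when the origin recognition complex, Cdc6 and Cdt1 load the Mcm helicase onto chromatin. Cyclin E with Cdk2 and the kinase Cdc7 then fire the origins, and the polymerases, the sliding clamp Pcna and its loader build the new strands. E2F factors transcribe much of this machinery once the retinoblastoma proteins release them, and the transcripts of mitosis peak later, in G2 and M. A proliferating tumour line holds cells of each stage side by side.

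The label was compared with the S-phase genes that the score does not hold. Of 76 such replication genes with enough UMIs to be described, 40 were at least 1.5-fold higher in S-high than in S-low cells, where 3.94% of all genes tested were, and 0 at least 1.5-fold lower. They come from the same cells and contrast as the score, and the list was chosen with earlier results of these data known, so the count is a description of the label and no independent support for it. Cdc6 was at 8.99, Mcm3 at 2.90, Mcm7 at 2.10, the DNA ligase Lig1 at 2.63 and the flap endonuclease Fen1 at 2.50. Of genes outside that list the cyclin Ccne2 was at 5.89, the uracil-DNA glycosylase Ung at 6.09 and Slbp, which binds the stem-loop of histone mRNA, at 1.81. Other S-phase genes lay below 1, among them Orc3 of the origin recognition complex at 0.772, the kinase regulator Dbf4 at 0.927 and the S and G2 cyclin Ccna2 at 0.838. These examples were picked after their values were seen. Here and below a ratio is the level in S-high divided by that in S-low cells, and a level is in CPM, the UMIs of a gene summed over the cells of a class per 1000000 UMIs of that class. Ranges in parentheses after a level or a ratio are exact 95% intervals and cover counting error only.

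Searching the 250 bases before the start of each protein-coding gene for E2F letters shows which genes of the score and beyond it carry them. The letters, sought on both strands, were TTTCCCGC, TTTCGCGC, TTTGCCGC and TTTGGCGC. Of the 14 score genes 4 held a match, and they are shown because they chose the cells. Dscc1 and Ncapg2 are shown as the 2 genes of highest ratio among the named genes outside the score that held one. Each sequence was read from GRCm39 at the GENCODE start, runs 5′ to 3′ on the strand of its gene and ends 1 base before the start. Capitals mark the matches.
Mcm4 (chr16:15455265-15455514, minus strand): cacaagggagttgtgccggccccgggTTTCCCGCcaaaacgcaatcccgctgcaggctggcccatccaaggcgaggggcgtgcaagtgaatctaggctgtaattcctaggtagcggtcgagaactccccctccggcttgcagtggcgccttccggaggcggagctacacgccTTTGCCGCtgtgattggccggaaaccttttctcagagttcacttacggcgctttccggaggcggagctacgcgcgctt
Mcm5 (chr8:75835890-75836139, plus strand): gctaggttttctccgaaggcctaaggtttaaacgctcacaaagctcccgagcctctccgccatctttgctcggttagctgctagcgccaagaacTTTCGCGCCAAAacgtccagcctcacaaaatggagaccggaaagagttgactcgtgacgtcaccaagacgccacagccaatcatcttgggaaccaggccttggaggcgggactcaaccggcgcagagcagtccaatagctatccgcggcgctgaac
Mcm6 (chr1:128287453-128287702, minus strand): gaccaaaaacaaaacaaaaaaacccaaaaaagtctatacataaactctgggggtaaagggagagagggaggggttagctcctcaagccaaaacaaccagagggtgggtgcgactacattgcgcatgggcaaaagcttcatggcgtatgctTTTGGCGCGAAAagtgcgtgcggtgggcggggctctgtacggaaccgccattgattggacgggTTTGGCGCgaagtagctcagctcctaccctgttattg
Pola1 (chrX:92675814-92676063, minus strand): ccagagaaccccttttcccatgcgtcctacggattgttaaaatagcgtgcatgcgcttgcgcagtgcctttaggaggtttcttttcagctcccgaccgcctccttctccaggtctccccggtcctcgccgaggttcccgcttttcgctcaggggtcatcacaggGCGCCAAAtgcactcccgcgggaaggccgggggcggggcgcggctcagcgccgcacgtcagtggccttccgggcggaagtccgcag
Dscc1 (chr15:54953893-54954142, minus strand): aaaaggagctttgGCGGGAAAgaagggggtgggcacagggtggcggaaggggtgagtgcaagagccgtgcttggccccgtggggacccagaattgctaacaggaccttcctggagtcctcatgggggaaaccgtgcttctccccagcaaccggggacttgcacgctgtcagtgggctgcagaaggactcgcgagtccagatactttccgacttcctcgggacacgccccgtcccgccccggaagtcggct
Ncapg2 (chr12:116368712-116368961, plus strand): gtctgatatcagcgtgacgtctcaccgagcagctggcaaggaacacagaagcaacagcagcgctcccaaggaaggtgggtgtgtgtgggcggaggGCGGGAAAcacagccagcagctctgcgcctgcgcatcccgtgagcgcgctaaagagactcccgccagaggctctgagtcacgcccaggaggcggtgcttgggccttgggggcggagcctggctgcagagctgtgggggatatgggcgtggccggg

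The 2 matches of Mcm5 overlap and begin 156 and 152 bases before the start, and the 3 of Mcm6 begin 100, 96 and 37 bases before it. Mcm4 held 2, at 224 and 78 bases, and Pola1, the catalytic subunit of the polymerase that primes new strands, held 1 at 86 bases. Score genes with a match were 28.6% of 14, against 6 of 79 replication genes outside the score (7.59%) and 7 of 33 genes of G1/S control (21.2%), which included E2f3, E2f7, Cdk2 and Rb1. Of the genes at least 1.5-fold higher in S-high cells 24 of 276 with a sequence held a match (8.70%), and of those at least 1.5-fold lower 4 of 308 (1.30%). Over all tested genes it was 256 of 7299 (3.51%) and over all 21303 protein-coding genes 478 (2.24%). The letters CCAAT were in 9 of 14 score genes (64.3%) and 26 of 47 G2/M genes (55.3%). They were also in 17 of 28 chromatin genes (60.7%), 14 of 25 licensing genes (56.0%) and 30 of 79 replication genes outside the score (38.0%), against 36.0% of tested and 36.5% of all protein-coding genes. Fork genes held them in 31.25% and nucleotide synthesis genes in 27.3%. Genes at least 1.5-fold higher and at least 1.5-fold lower in S-high cells were close, at 42.4% and 41.2%. TTTGAA or TTCGAA, the cell cycle homology letters, were in 12 of the 47 G2/M genes (25.5%) and 8 of the 28 chromatin genes (28.6%), against 13.5% of tested and 17.0% of all protein-coding genes. Replication genes outside the score held them in 11.4%, and genes at least 1.5-fold higher and lower in 16.7% and 14.3%. CCAAT and the cell cycle homology letters were sought on both strands, and a run of them may overlap an E2F match. A match is a description and not a shown site, and no match says only that these letters are absent from this window.

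**Figure D1:**
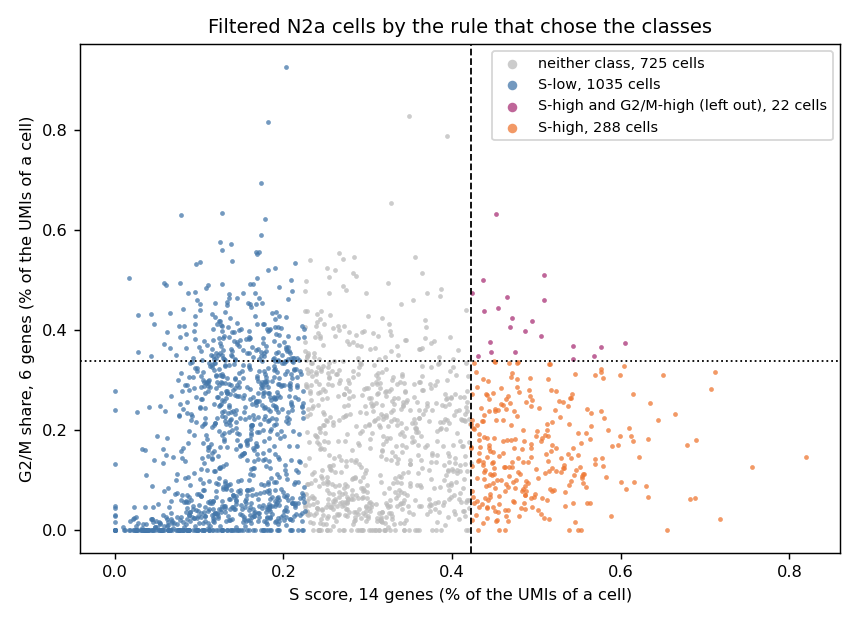
S score (x axis, percent of UMIs on 14 genes) against G2/M share (y axis, percent of UMIs on 6 genes) for 2070 N2a cells, 1 point per cell, with lines at the lowest S score (dashed) and the lowest G2/M share (dotted) of the highest 15%. The 288 S-high cells lie right of the dashed and below the dotted line, and no gap parts them from the cells to their left.

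The score is a range with no gap. The last cell inside the highest 15% had 0.4227% of its UMIs on the 14 genes and the first outside had 0.4225%. S-low ended at 0.225%, and 19 of its cells had no UMI of the 14 genes. The median S-high cell had a score of 0.486% and 33 such UMIs, and the median S-low cell 0.137% and 9. With counts this small, the 95% binomial interval of a cell's own score held the threshold for 254 of 288 members (88.2%), and for 545 cells outside, 32 of them S-low. After thinning each cell to 2000 UMIs, S-high cells kept 10.1 UMIs of the 14 genes on average and S-low cells 2.69. Over all N2a cells the variance of this thinned count was 2.34 times its mean, where it was 1.59 times in NIH/3T3 and 1.40 times in mESC.

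Depth and quality differed little between the classes. S-high cells had a median of 6732 UMIs, ranging from 2002 to 25971, and S-low cells 7075, ranging from 2014 to 40371. The summed depths were 2282694 and 8953837 UMIs. Mitochondrial UMIs were 2.03% of the median S-high cell and 2.24% of the median S-low cell, and thinned to 2000 UMIs the median cells held 1447 and 1442 genes. The 28 genes of the N2a identity list summed to 8966 CPM in S-high and 9787 in S-low cells of N2a, against 595 and 617 in NIH/3T3 and 594 and 569 in mESC. The most abundant was Gm30835, a long noncoding RNA, at 3965 CPM in S-high and 3556 in S-low, and 5 of the 28 were at 0 in S-high.

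The line matrices were split by first barcode, so 0 barcodes are shared between them by construction, and this says nothing about stray transcripts. Of 12 NIH/3T3 markers 5 were at 0 in S-high cells, among them Col1a1, Col3a1 and Thy1, and a count of 0 allows up to 3 UMIs of the 2282694 for each. S100a6, a calcium-binding protein gene, was the most abundant at 753 CPM in S-high and 753 in S-low, and the other 11 summed to 4.82 and 3.35 CPM. Over all filtered cells S100a6 was at 739 CPM in N2a and 1774 in NIH/3T3, and the other 11 at 3.75 and 3223. The 12 mESC markers, led by Dppa5a, summed to 30.2 CPM in S-high and 20.5 in S-low, with Pou5f1 and Tdh at 0 in S-high. The part of stray transcripts or of joined cells in the results was not tested, apart from the setting without the deepest cells below.

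The score genes fixed the members, so their ratios only describe the choice. Rrm2, the small subunit of ribonucleotide reductase, was furthest apart, at 179.6 CPM in S-high and 23.8 in S-low (ratio 7.55). Dtl, which guides Cdt1 to destruction, was at 5.41 and Clspn, a fork checkpoint mediator, at 5.08. Pcna, the clamp (chr2:132091082-132095234), was at 365 CPM (341 to 391) in S-high and 81.8 (75.9 to 87.9) in S-low. Hells, a chromatin remodeler (chr19:38919359-38960047), was at 784 (748 to 821) and 228 (218 to 238), and the helicase subunit Mcm5 (chr8:75836140-75856231) at 161 (145 to 178) and 47.7 (43.3 to 52.4). Rrm1, the large reductase subunit, was closest to 1, at 1.92.

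Each score gene was also left out of the score in turn and measured in members chosen by the other 13. It was higher in S-high in 14 of 14 cases. From 241 (without Dtl) to 273 (without Rrm2) of the 288 members were chosen again. The other 13 genes come from the same rule and the same cells, so this count describes the choice and is no support for it. The ratios ran from 1.57 for Rrm1 and 1.65 for Tyms, the thymidylate synthase, to 5.84 for Rrm2, with 3.39 for Pcna, 2.84 for Mcm5 and 2.67 for Hells. When the UMIs of each cell were divided at random and members were chosen on 1 part and measured on the other, the summed score genes had a ratio of 2.85 in place of 3.59. Of the 288 members, 205 were chosen again on that part, and 176 were chosen again after thinning to 2000 UMIs.

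In all, 7460 genes outside the rule reached 20 CPM over the filtered N2a cells, and their median ratio was 0.976. In S-high cells 294 of them were at least 1.5-fold higher (3.94%) and 324 at least 1.5-fold lower (4.34%). With the score taken after thinning each cell to 2000 UMIs these were 228 and 212, and 200 of the 294 (68.0%) and 149 of the 324 (46.0%) were called again. For the highest 10% by score they were 342 and 512. Of the S-low cells, 193 were in the highest 15% by the G2/M share. Against the other 842, 319 genes were higher (4.28%) and 285 lower (3.82%). These shares are the background for the counts below, in which higher and lower mean past 1.5-fold.

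The replication genes outside the score were 79, of which 76 reached 20 CPM. All 79 summed to 9599 CPM in S-high and 6516 in S-low (ratio 1.47, 1.45 to 1.50), and 40 of the 76 were higher, 0 lower and 70 above 1, with a median ratio of 1.56.

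Licensing and firing genes had the highest ratio of the 3 replication lists. Their sum was 2696 CPM in S-high and 1493 in S-low (ratio 1.81, 1.75 to 1.86), and 15 of 24 genes were higher. Cdc6, the helicase loader (chr11:98798507-98814766), was at 196 CPM (178 to 215) in S-high, 117 in the intermediate cells, 21.8 (18.8 to 25.1) in S-low and 23.3 in G2/M-high cells. Over the 32 wells it ran from 83.5 to 363 CPM with a median of 186 in S-high, and from 0 to 44.4 with a median of 21.7 in S-low. The wells of the 2 classes did not overlap, on 3 to 41 Cdc6 UMIs per well in S-high cells. The genes followed over wells were chosen after their values were seen. The share of all tested genes whose wells do not overlap was not counted, so this describes the contrast and is no result about Cdc6. Cdc45, which turns the helicase on, was at 68.8 and 18.4 CPM (ratio 3.73), and Mcm10, which acts with it, at 2.63.

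Cdt1, the second loader, and Gmnn, the inhibitor that keeps Cdt1 from licensing again, were both higher, at 2.56 and 2.50. Of the origin recognition subunits Orc6 was at 2.21 and Orc1 at 1.37, while Orc2 and Orc4 were at 1.09 and 1.02 and Orc3 and Orc5 at 0.772 (0.616 to 0.959) and 0.753 (0.582 to 0.963). The firing kinase Cdc7 was at 1.60 (1.31 to 1.95) and its activator Dbf4 at 0.927 (0.791 to 1.08). Dbf4 stood at 136 CPM in the G2/M-high cells against 87.6 in S-high.

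Fork genes had 18 of 30 members higher and a ratio of the sums of 1.51 (1.47 to 1.55). Dscc1, part of a clamp loader for sister cohesion, was at 41.2 CPM in S-high and 8.26 in S-low (ratio 4.98, 3.64 to 6.85). Wdhd1, which joins helicase and polymerase alpha, was at 3.31, and Lig1, which seals the new fragments, at 286 against 109 CPM. Subunits of 1 complex lay apart. The polymerase epsilon genes Pole2 and Pole were at 3.05 and 2.23, and Pole3 and Pole4 at 1.10 (0.915 to 1.33) and 1.12 (0.964 to 1.30). Among the single-strand binding proteins Rpa2 was at 2.78, Rpa1 at 1.72 and Rpa3 at 1.11 (0.948 to 1.29). The clamp loader genes ran from 1.19 for Rfc5 to 1.93 for Rfc4. Top1, the topoisomerase that relaxes DNA ahead of forks, was the 1 fork gene of 30 with a ratio under 1, at 299 CPM against 406 (ratio 0.738, 0.679 to 0.801).

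Nucleotide synthesis genes lay closest to 1, with 7 of 22 higher and a ratio of the sums of 1.24 (1.21 to 1.28). Paics of purine synthesis was at 1.76, the nucleoside kinases Dck and Tk1 at 1.75 and 1.68, Umps of pyrimidine synthesis at 1.65 and Dut, which clears dUTP, at 1.55. Cad and Ctps of pyrimidine synthesis were at 1.02 (0.805 to 1.28) and 1.06 (0.879 to 1.28). The cytosolic serine enzyme Shmt1 was at 1.58 and the mitochondrial Shmt2 at 0.752 (0.643 to 0.875). Rrm2b, the p53-induced form of the small reductase subunit, was at 0.748 (0.634 to 0.877), below 1 where the score gene Rrm2 was at 7.55.

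**Figure D2:**
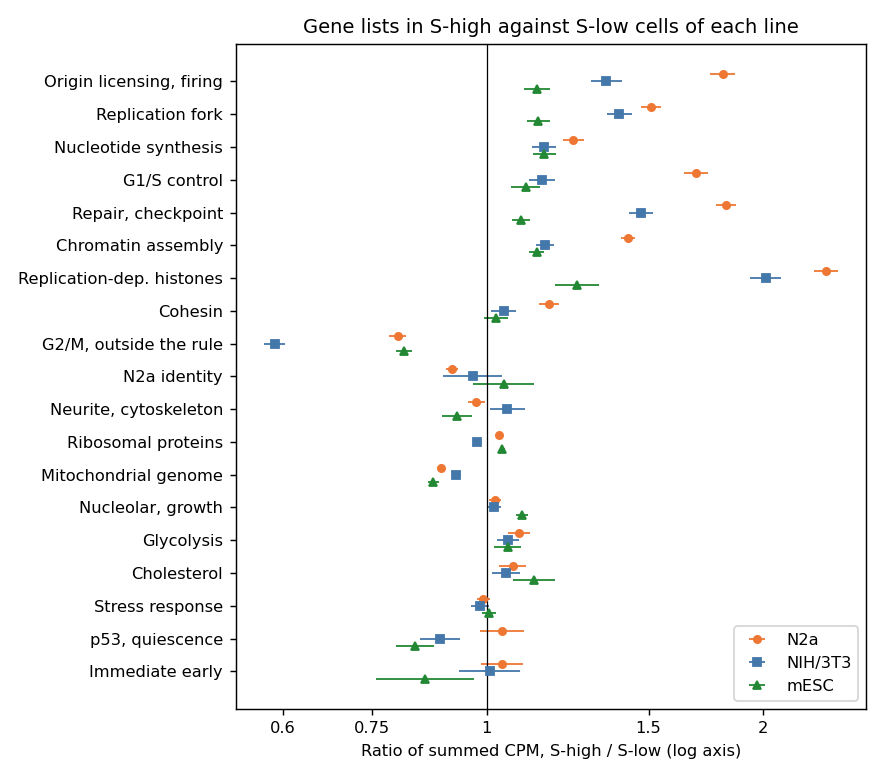
Ratio of the summed CPM of S-high to S-low cells (x axis, log scale) for 19 gene lists (y axis) in N2a, NIH/3T3 and mESC. There was 1 sample per line, and bars are the exact 95% interval of counting error. In N2a the histone list is furthest right at 2.34, and the G2/M list is left of 1 in each line.

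G1/S control genes held some of the largest ratios, and 15 of 24 were higher (sum ratio 1.69, 1.64 to 1.74). E2f2, an activating E2F (chr4:135899585-135923368), was at 89.8 CPM (77.9 to 103) in S-high and 10.1 (8.08 to 12.4) in S-low, a ratio of 8.93. The activators E2f1 and E2f3 were at 2.696 and 1.92, and the late repressors E2f7 and E2f8 at 3.26 and 3.87. E2f4 and E2f5, repressors of resting cells, were at 0.912 (0.697 to 1.18) and 0.718 (0.560 to 0.910).

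Ccne2 (chr4:11190303-11204947), a cyclin of S-phase entry, was at 181 CPM (164 to 199) in S-high and 30.7 (27.2 to 34.6) in S-low. Over the wells it ran from 70.7 to 286 in S-high and from 0 to 73.7 in S-low. The 2 ranges overlapped at their edges, and S-high was the higher in 32 of 32 wells. Ccne1 was at 3.26 and the partner kinase Cdk2 at 2.29. Cdk4 and Ccnd1, which act in G1, were at 0.978 (0.885 to 1.08) and 0.898 (0.749 to 1.07). Fbxo5, an inhibitor of the anaphase-promoting complex, was at 4.11, and the Cdk inhibitor Cdkn1a at 59.1 against 26.5 CPM (ratio 2.23, 1.80 to 2.77). Ccna2, the cyclin of S phase and G2, was at 0.838 (0.733 to 0.954), and at 0.947 once the G2/M-high cells were taken from S-low.

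Repair and checkpoint genes had 21 of 32 members higher and a sum ratio of 1.82 (1.78 to 1.87). Ung, which removes uracil from new DNA, was at 78.9 CPM (67.8 to 91.3) in S-high, 13.0 (10.7 to 15.5) in S-low and 8.83 in G2/M-high cells. Brca1, of homologous recombination, was at 417 CPM against 82.6 (ratio 5.05, 4.58 to 5.57), and its wells ran from 240.0 to 979 in S-high and from 35.6 to 136 in S-low. These wells did not overlap, on 7 to 72 Brca1 UMIs per well in S-high cells, and the limits given for Cdc6 hold here too. Its partners Bard1 and Brip1 were at 2.54 and 1.82, and Rad51ap1, of the same pathway, was at 3.58. Atad5, which unloads Pcna, was at 2.91, the exonuclease Exo1 at 2.84 and the checkpoint kinase Chek1 at 2.45. Atr, the kinase upstream of Chek1, was at 0.762 (0.631 to 0.914). Msh6, of mismatch repair, was at 2.08 (1.72 to 2.51).

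Chromatin genes had 12 of 28 members higher (sum ratio 1.42, 1.40 to 1.45). Mms22l and Tonsl, which act as a pair at new chromatin, were at 4.14 and 2.73. Atad2, a bromodomain ATPase, was at 885 CPM (847 to 925) against 257 (247 to 268). Its wells ran from 573 to 1288 in S-high, on 14 to 136 UMIs per well, and from 197 to 327 in S-low. They did not overlap, with the same limits as for Cdc6. The assembly factor subunits Chaf1b and Chaf1a were at 3.39 and 2.13, Ezh2, the H3K27 methyltransferase, at 2.13, the histone chaperone Nasp at 1.91 and the maintenance methyltransferase Dnmt1 at 1.70. Hmgb2, a DNA-bending protein, was at 0.814 (0.769 to 0.861). Of 12 cohesin genes 1 was higher, Stag2 at 1.64 (1.50 to 1.78), and the sum ratio was 1.17. The lowest Stag2 ratio over 13 alternative settings was 1.44, under 1.5-fold.

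Replication-dependent histone genes had the highest ratio of the 19 lists compared. Most of their mRNA ends in a stem-loop with no poly(A) tail, and the libraries captured poly(A) RNA, so only part of it was seen. Of 63 genes 12 reached 20 CPM, and 11 of the 12 were higher. The sum was 3098 CPM in S-high and 1324 in S-low (ratio 2.34, 2.27 to 2.41). The linker histone H1f5 was at 1058 CPM (1016 to 1101) and 427 (414 to 441), and over the wells from 367 to 1779 in S-high and 237 to 754 in S-low. The well ranges overlapped, and S-high was the higher in 32 of 32. H1f1, another linker histone, was at 4.00, and the core histones H2ac8, H2ac15 and H4c4 at 3.53, 3.37 and 2.38. H1f2 was the 1 of 12 under 1.5-fold, at 1.29. Core histone genes are near-identical copies, so the split of reads among them is uncertain.

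**Figure D3:**
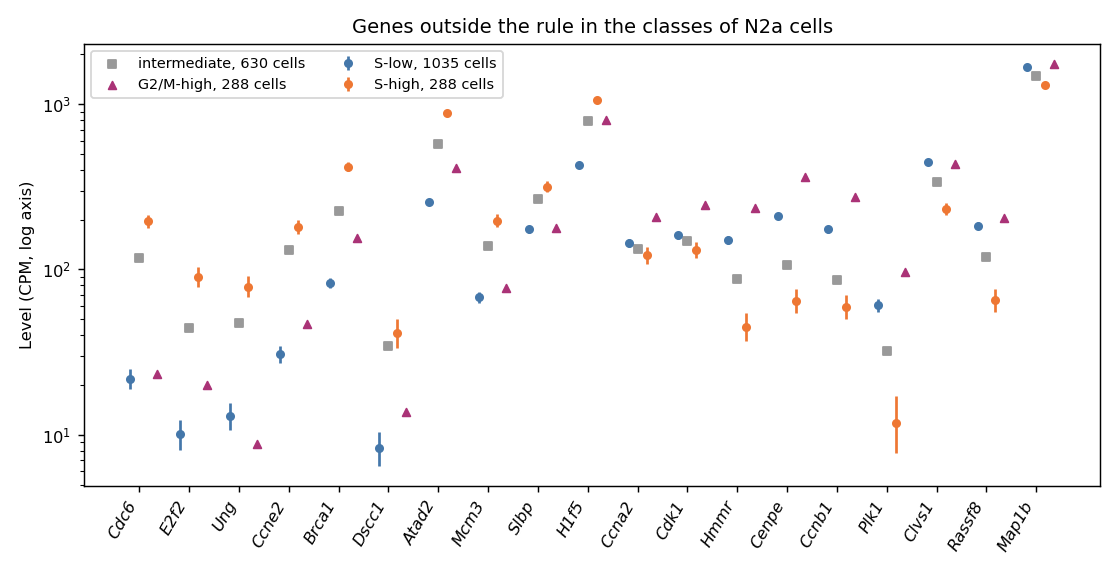
Level (y axis, CPM, log scale) of 19 genes outside the rule (x axis) in S-low, intermediate, S-high and G2/M-high N2a cells, with exact 95% intervals of counting error for S-low and S-high. The G2/M-high class shares 193 cells with S-low; Cdc6 is highest in S-high at 196 CPM and Plk1 is lowest there at 11.8.

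The members differed among themselves in histone transcripts, and this division was chosen after the values were seen. The 96 members with the highest histone share had 5140.1 CPM of these transcripts and the 96 with the lowest had 1225. Their median scores were close, at 0.499% and 0.473%, and their median depths were 6127 and 6532 UMIs. Licensing genes had a ratio of 1.06 (0.991 to 1.12) between the histone-rich and the histone-poor members, Cdc6 0.884 (0.690 to 1.13) and Ung 0.848 (0.579 to 1.24). The sums of the other S-phase lists had ratios above 1 in the histone-rich members, with fork genes at 1.20 (1.14 to 1.27), G1/S genes at 1.18 (1.11 to 1.26), chromatin genes at 1.18 (1.14 to 1.22), repair genes at 1.17 (1.11 to 1.23) and nucleotide synthesis genes at 1.16 (1.10 to 1.23). Atad2 was at 1.31 (1.17 to 1.47) and the score gene Pcna at 1.27 (1.07 to 1.51). Other score genes lay closer to 1, with Mcm5 at 1.07 (0.827 to 1.39) and Hells at 1.02 (0.905 to 1.15). Rrm2 was at 1.06 (0.828 to 1.37) and Tyms at 1.14 (0.889 to 1.46). The score genes together summed to a ratio of 1.06 (1.01 to 1.11). G2/M genes outside the rule differed more, at 5201 CPM against 3475 (ratio 1.50, 1.42 to 1.57). Ccna2, of the G1/S list, was at 142 against 68.6 CPM (ratio 2.07, 1.47 to 2.95). Top2a, a G2/M gene of the rule and the topoisomerase that untangles sister chromosomes, was at 1225 against 585 (ratio 2.10, 1.87 to 2.35). Gmnn and Slbp were at 1.57 (1.22 to 2.04) and 1.52 (1.25 to 1.85). Ribosomal protein genes were at 1.20 and mitochondrial transcripts at 1.09 in the same comparison. The part of RNA content in it was not tested.

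Cells in the highest 15% by histone share were counted in each class. They were 72 of 288 members (25.0%, exact binomial 20.1 to 30.4%), 66 of 288 G2/M-high cells (22.9%) and 83 of 1035 S-low cells (8.02%, 6.44 to 9.84%). Of the 22 cells left out of the members for a high G2/M share, 15 were among them (68.2%, 45.1 to 86.1%).

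G2 and mitosis genes outside the rule summed to 4416 CPM in S-high cells against 5519 (ratio 0.800, 0.783 to 0.817). Of 47 genes 18 were lower and 1 higher. The rule took the G2/M-high cells out of the members and left 193 of them in S-low. Against S-low without these the ratio was 0.925, with 14 genes lower and 4 higher. The kinase Plk1 (chr7:121758646-121769108) had the lowest ratio, at 11.8 CPM (7.79 to 17.2) in S-high and 60.5 (55.5 to 65.9) in S-low. The centromere histone Cenpa was at 0.237 (0.169 to 0.323), Cdc20, which activates the anaphase-promoting complex, at 0.245 (0.146 to 0.390), and the spindle genes Hmmr and Cenpe at 0.300 and 0.306. Under 13 alternative settings Plk1 ranged from 0.167 to 0.298, Cenpa from 0.214 to 0.412 and Cdc20 from 0.231 to 0.424.

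Ccnb1, the mitotic cyclin, was at 59.6 CPM against 174 (ratio 0.342, 0.284 to 0.407). Over the wells it ran from 0 to 144 in S-high and from 106 to 276 in S-low, and S-high was the lower in 32 of 32. Not all genes of the list shared this direction. The condensin genes Ncaph, Smc4 and Smc2 were at 1.60 (1.37 to 1.87), 1.38 and 1.21 and the kinetochore gene Knl1 at 1.27. The mitotic kinase Cdk1 was under 1, at 0.813 (0.716 to 0.922). The 6 genes of the rule were spread in the same way, from Cenpf to Top2a. The kinetochore gene Cenpf was at 0.335, the spindle factor Tpx2 at 0.380, Mki67 at 0.951 and Top2a at 1.19. Against S-low without the G2/M-high cells the sum of these 6 turned from 0.848 to 1.16. Mki67 itself ranged from 0.893 to 1.28 over 13 alternative settings.

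**Figure D4:**
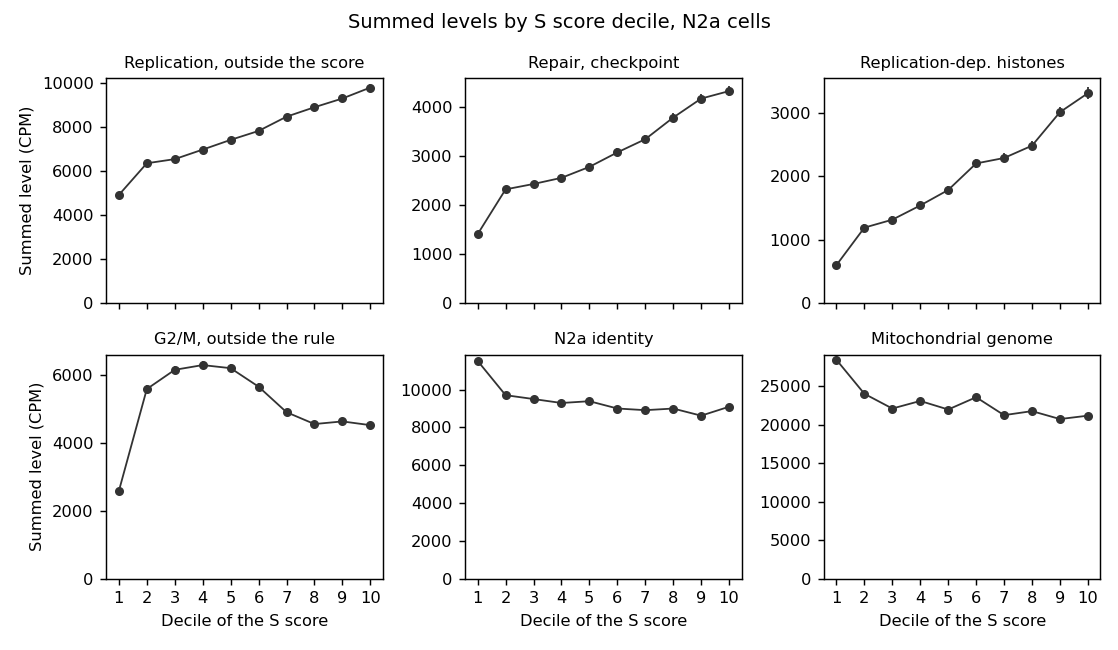
Summed level (y axis, CPM) of 6 gene lists in 10 deciles of the S score (x axis, 207 N2a cells each), with exact 95% intervals of counting error, mostly smaller than the points. Replication, repair and histone genes are higher in each successive decile, and G2/M genes peak in decile 4 at 6294 CPM.

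Along the whole score the lists took different courses. From the lowest to the highest decile of 207 cells, replication genes outside the score went from 4903 to 9788 CPM, repair genes from 1401 to 4325 and histones from 595 to 3317. G2/M genes stood at 2587 CPM in the lowest decile, 6294 in decile 4 and 4525 in the highest. The lowest decile was thus low in both programs. It was also highest in N2a identity genes, at 11511 CPM against 9091 in the highest decile, and in mitochondrial transcripts, at 28460.2 against 21201. Its cells had a median of 5147 UMIs, against 6473 in the highest decile.

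Of 19 N2a identity genes at 20 CPM or more 1 was lower and 0 higher in S-high cells, beside 4.34% lower among all genes tested. The sum ratio was 0.916 (0.902 to 0.930) and the median ratio 0.837, and 15 of the 19 were under 1, as were 55.2% of all genes tested. Without Gm30835, a setting chosen after the data were seen, the other 27 summed to 5002 CPM in S-high and 6231 in S-low, a ratio of 0.803 (0.787 to 0.819). The 1 gene past 1.5-fold was Clvs1, a vesicle lipid-binding protein gene (chr4:9269263-9451694), at 232 CPM (213 to 253) in S-high and 447 (433 to 461) in S-low. Over the wells it ran from 104 to 376 in S-high and from 299.6 to 695 in S-low. The ranges overlapped, and S-high was the lower in 29 of 32 wells. Hand2, a transcription factor of the sympathetic lineage, was at 0.673 (0.619 to 0.731), the neuronal RNA-binding proteins Elavl4 and Elavl3 at 0.723 and 0.748, Gap43 of growth cones at 0.743 and the microtubule protein Map1b at 0.774 (0.743 to 0.805). The granin gene Chga and the microtubule regulator Stmn1 were at 1.20 and 1.16.

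Most other lists lay near 1. Neurite and cytoskeleton genes were at 0.974, with 1 of 15 lower, the tau gene Mapt at 0.580 (0.483 to 0.692). Ribosomal protein genes were at 1.03 with 0 of 84 past 1.5-fold in either direction, and transcripts of the mitochondrial genome at 0.891 (0.882 to 0.900) with 12 of 13 under 1. Glycolysis was at 1.08, cholesterol synthesis at 1.07, nucleolar and growth genes at 1.02, p53 and quiescence genes at 1.04, immediate early genes at 1.04 and stress genes at 0.992. Past 1.5-fold in these 6 lists were Klf6 at 1.56, and the stress genes Chac1 at 1.75 (1.29 to 2.35) and Ddit3 at 1.60 (1.38 to 1.87). Their lowest ratios over 13 alternative settings were 1.28, 1.43 and 1.36, all under 1.5-fold. Myc, a growth regulator of the immediate early list, was at 0.669 (0.536 to 0.828).

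Outside the rule and the lists, the 12 genes of highest ratio at 50 CPM or more were led by Zfp367, a zinc finger gene, at 176 CPM against 33.1 (ratio 5.31, 4.56 to 6.20), and Zgrf1, a repair helicase, at 243 against 49.0 (ratio 4.96). Slc35d2, 3634 bases from Zfp367 on the same strand, had a ratio of 6.54 with 155 UMIs in S-high cells. Wdr76 was at 4.05, Ncapg2 of condensin II at 3.93, Fam111a, a Pcna-binding protease, at 3.00, Rad51b at 2.60, Pclaf, a Pcna-binding factor, at 2.50, the annealing helicase Zranb3 at 2.37 and Tex13b at 2.31. Kdm4b, a histone demethylase at 4.59, lies 2424 bases from the score gene Uhrf1 on the same strand. Csnk1g1, a casein kinase at 3.88, lies 3860 bases from Pclaf on the same strand, and in NIH/3T3 these genes were at 0.998 and 0.971. Brip1os, a noncoding RNA at 2.44, overlaps Brip1 on the other strand. The part of reads from these neighbours in the values was not tested.

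The 12 lowest outside the lists were led by the noncoding RNA 9530059O14Rik, at 86.3 CPM against 245 (ratio 0.353, 0.303 to 0.408), and Rassf8, a Ras-association gene, at 65.3 against 184 (ratio 0.356, 0.299 to 0.421). Without the G2/M-high cells in S-low they were at 0.368 and 0.374. Across 13 alternative settings 9530059O14Rik ranged from 0.267 to 0.495 and Rassf8 from 0.316 to 0.511. The histone demethylase Kdm5b was at 0.441, Enc1 at 0.437, the secreted Wnt inhibitor Dkk1 at 0.490 and the securin gene Pttg1 at 0.496. The others were Gnasas1, which overlaps Gnas, and Gm26760, Fam78b, Cradd, Gm26871 and Gtdc1, between 0.400 and 0.508.

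**Figure D5:**
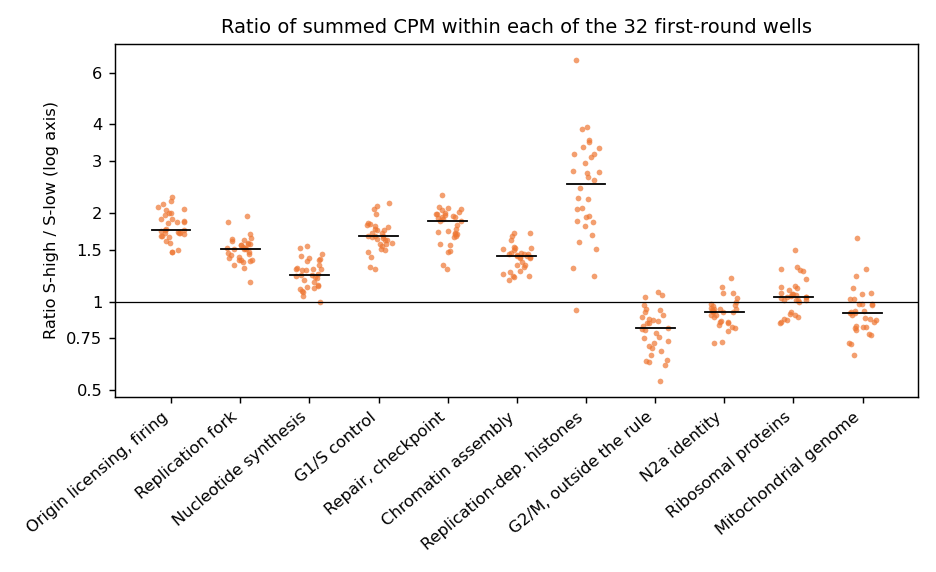
Ratio of the summed CPM of S-high to S-low cells (y axis, log scale) within each of the 32 first-round wells of N2a for 11 gene lists (x axis), 1 point per well with a bar at the median. Licensing, fork, G1/S, repair and chromatin genes lie above 1 in 32 of 32 wells, and histones spread most, from 0.937 to 6.62.

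S-high cells were found in each of the 32 wells, with 3 to 18 per well (median 9), which was 4.55% to 23.5% of the cells of a well. Replication genes outside the score had ratios from 1.22 to 1.73 (median 1.47), repair genes from 1.29 to 2.31 and G1/S genes from 1.29 to 2.17. Histones were above 1 in 31 wells, G2/M genes below 1 in 29 and N2a identity genes below 1 in 26. Ribosomal protein genes, above 1 in 23 wells, and mitochondrial transcripts, below 1 in 24, were the least even. Within the 4 quartiles of UMIs per cell, replication genes outside the score were between 1.41 and 1.51 and G2/M genes between 0.768 and 0.872. Ribosomal protein genes crossed 1, with 0.981 in the third quartile.

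The same rule gave 257 S-high cells in each of the other lines. The median S-high cell had 5093 UMIs in NIH/3T3 and 4667 in mESC. In NIH/3T3 cells 161 of 7470 tested genes were higher (2.16%) and 182 lower (2.44%), and in mESCs 83 of 7245 were higher (1.15%) and 236 lower (3.26%). The summed score genes had a ratio of 3.59 for N2a, 2.53 for NIH/3T3 and 1.95 for mESC. Licensing genes followed the same order, at 1.81, 1.35 and 1.13, as did repair genes at 1.82, 1.47 and 1.09 and histones at 2.34, 2.01 and 1.25. Cdc6 was at 8.99, 3.13 and 1.67, Brca1 at 5.05, 2.21 and 1.45, and Cdkn1a at 2.23, 1.05 and 0.640. G2/M genes outside the rule were at 0.800, 0.588 and 0.812, and against S-low without G2/M-high cells at 0.925, 0.802 and 0.895.

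Of the 222 genes higher in N2a that were also tested in NIH/3T3, 86 were higher there too (38.7%) and 0 lower, where 2.11% of all 6171 genes tested in both were higher and 2.03% lower. Of 218 genes lower in N2a, 51 were lower in NIH/3T3 (23.4%) and 0 higher. In mESC, 10 of 219 were higher (4.57%) and 6 lower (2.74%), and of 201 genes lower in N2a 18 were lower (8.96%) and 2 higher (0.995%). Of all 5994 genes tested in both N2a and mESC, 0.968% were higher and 2.22% lower in mESC. With 1 sample per line, and a fixed share of its cells called S-high, these differences between lines were not tested.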

How the data were processed

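Poly(A) RNA of cells enclosed in gelatin methacryloyl capsules was barcoded over rounds of plates and sequenced. The deposited counts are unnormalized numbers of UMIs for each gene in each barcode, which the authors made with bcl2fastq, a split of reads by first barcode into the 3 lines, Cutadapt and STARsolo on GRCm39. The N2a matrix held 20662884 UMIs, of which 17581784 lay in the 2070 cells kept (1 of 2071 barcodes with at least 2000 UMIs had over 20% mitochondrial UMIs). The pooled matrix of the mixed lines was used only as an alternative, and no doublet caller was run.

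UMIs were summed per class and scaled to CPM. Intervals were exact Poisson for levels, exact binomial conditional on the sum for ratios and Clopper-Pearson for shares, at 95%, and cover counting error only. Those for shares of cells treat the cells of 1 sample as separate draws, and cells are not replicates. With 1 sample per line no test was possible. Genes were described as past 1.5-fold among those with at least 20 CPM over all filtered cells. The members and lists were chosen with earlier results of these data known. Named genes were the 14 and 6 rule genes, list members at 20 CPM or more, and the 12 highest and 12 lowest by ratio among the other genes at 50 CPM or more. Examples within lists, the genes followed over wells and the division by histone share were chosen after their values were seen. Positions and start sites came from GENCODE M39 on GRCm39 and covered 32953 of 33565 genes listed.

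Alternatives varied the depth, mitochondrial and score thresholds, the comparison cells, thinning, weighting, deep cells, the fold and the level minimum. Figures were drawn with matplotlib 3.10.9, tables handled with pandas 2.3.3, and intervals taken from scipy 1.17.1 over numpy 2.4.6 in Python 3.11.15. The scripts were tested on simulated data. Some genes and a sequence are not reported here.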

Additional observations from a re-analysis of the deposited data

Results flagged for a closer look

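The ratio of S-high to S-low cells had opposite directions in N2a and another line for 2 gene lists, whose intervals excluded 1 in both lines, and for 3 genes, which had at least 50 CPM in both lines and were past 1.5-fold in both. The neurite and cytoskeleton list was at 0.974 (0.955 to 0.994) in N2a and 1.05 in NIH/3T3, and the ribosomal protein list at 1.03 in N2a and 0.975 in NIH/3T3. Dleu2, a long noncoding RNA, was at 2.21 in N2a and 0.549 in mESC, Fnip1, a folliculin partner, at 1.66 and 0.607, and Neat1, the paraspeckle RNA, at 1.52 and 0.503. Each line was 1 sample, and these differences were not tested.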

How the results depend on the processing

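Replication genes outside the score (ratio 1.47) ranged from 1.40 to 1.50 over 13 alternatives, with 1.40 when the score was taken after thinning to 2000 UMIs, 1.45 when members and levels came from separate random parts of the UMIs and 1.50 for the highest 10% by score. G2/M genes outside the rule (0.800) ranged from 0.788 to 0.925, with 0.925 against S-low without G2/M-high cells, 0.823 when G2/M-high members were kept and 0.822 as a mean over cells. The 294 genes at least 1.5-fold higher became 754 at a fold of 1.25, 98 at a fold of 2, 549 at 5 CPM or more and 149 at 50 CPM or more. The 324 lower genes became 1224, 48, 854 and 119 under the same 4 settings, 212 after thinning and 512 for the highest 10%. The genes behind the counts depend on the split of cells: after thinning, 200 of the 294 higher (68.0%) and 149 of the 324 lower genes (46.0%) were called again, and on separate UMIs 228 (77.6%) and 202 (62.3%). The 6 G2/M genes of the rule reversed, from 0.848 to 1.16 against S-low without G2/M-high cells, the 1 reversal among lists whose interval excluded 1. Of 403 named genes 165 were past 1.5-fold, and 0 of these crossed 1 in any alternative. Of the genes nearer to 1, 80 crossed it in at least 1 alternative, as did 3 of 23 lists, this one, immediate early genes (0.981 to 1.11) and NIH/3T3 markers (0.975 to 1.04). The median depth ratio (0.952) ranged from 0.901 to 1.04. Without the 104 deepest cells 294 genes were higher and 313 lower, and in the pooled matrix 292 and 319. Cause was not tested where values moved, except that a fold or level minimum changes the genes counted. No paired analysis was possible because each line was 1 sample. A median of 33 score UMIs per member limits how firmly a single cell is placed.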

Other observations

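The 22 N2a cells that were high in both the S score and the G2/M share were left out of the members, and more of their values are given here. They held 118775 UMIs, with a median of 5079 per cell. Their histone transcripts summed to 4824 CPM (4437 to 5236), their G2/M genes outside the rule to 6954 CPM and their replication genes outside the score to 9522 CPM. The class of G2/M-high cells outside the highest 15% of the S score was at 2336, 8324 and 7489 CPM. In NIH/3T3, 3 of 9 such doubly high cells were in the highest 15% by histone share (33.3%, exact binomial 7.49 to 70.1%), and in mESC 1 of 22 (4.55%, 0.115 to 22.8%). Whether these cells are single cells or joined pairs was not tested.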
